A study of Mus musculus with 16 samples.

Results

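Lipopolysaccharide (LPS), a component of the outer membrane of Gram-negative bacteria, was compared with DMSO vehicle in bone marrow-derived macrophages of 4 male C57BL6 mice of wild-type genotype. Each mouse gave 1 library to each group, so 8 of the 16 libraries of the series entered the comparison, and the other 8 came from cells of the same mice treated with SR9009. SR9009 is a small molecule that activates the REV-ERB nuclear receptors of the circadian clock. The LPS group received 100 ng/mL for 6 hours. Its labels name LPS alone, so a difference in overnight DMSO exposure and the effect of LPS cannot be told apart, and the labels used here give no age of the mice. The cells had been differentiated from marrow in medium with the supernatant of L929 cells, a fibroblast line that secretes the macrophage growth factor CSF1, and both groups were kept in that supernatant during treatment. In bulk RNA, fewer cells of a kind and less RNA per cell cannot be told apart.

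Toll-like receptor 4 binds LPS together with the co-receptor CD14 and signals through the adaptors MYD88 and TRIF. The former leads mainly to NF-κB and MAP kinases, the latter also to interferon regulatory factor 3 and type I interferon, which acts back on the same cells. Macrophages taking this route are known for the release of cytokines and nitric oxide, for a shift toward aerobic glycolysis and for leaving the cell cycle. The description here goes through the less familiar groups of genes first and returns to cytokines and interferon-inducible families at the end.

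Total counts were 18539925 to 24214863 in the DMSO libraries and 15819992 to 19723646 in the LPS libraries, and at least 1 count was found for 18243 to 18947 and 16419 to 17438 genes. All 10 macrophage markers were detected, with summed levels of 7537 to 11527 CPM (counts scaled to a common library size with TMM factors) with DMSO and 10457 to 11877 CPM with LPS. Markers of T cells, NK cells, dendritic cells and mast cells summed to at most 10.7 CPM in any library. The B cell list summed to 176 to 217 CPM with DMSO and 17.4 to 52.3 CPM with LPS, nearly all of it Ighm (193 and 31.2 CPM on average). Neutrophil markers summed to 0.179 to 0.388 CPM with DMSO and 2.14 to 6.99 CPM with LPS, and stromal and endothelial markers to 1.62 to 4.00 and 16.6 to 30.2 CPM. The erythroid and megakaryocyte list summed to 17.0 to 41.6 and 28.5 to 68.2 CPM, nearly all of it Pf4 (28.2 and 46.98 CPM on average). The part of other cells in the results below was not tested. Lyz2, often abundant in macrophages, was at only 30.8 and 36.7 CPM on average. It has a close copy, Lyz1, and how reads shared between copies were counted is not known here. Nothing in the labels says that the libraries of a mouse came from separate cultures, so the 4 mice are the replicates. The main test did not use the pairing by mouse. Its p-values set the difference between groups against the spread between libraries within a group, not against the spread of the response between mice.

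The response was broad and went in both directions. Of 12719 genes tested, 3735 (29.4%) were higher and 4115 (32.4%) lower with LPS by the edgeR quasi-likelihood test with a Benjamini-Hochberg adjusted p under 0.05, which makes 61.7% in all. Genes past this threshold are termed called. Among them, 3683 of the higher and 4071 of the lower genes moved in the same direction in 4 of 4 mice. They were called from these same libraries, so this describes the calls and is not separate support for them. A log2 fold change of at least 1 was reached by 2078 higher genes (16.3%) and at most −1 by 2476 lower genes (19.5%), and 162 and 70 genes passed 5 and −5. The plot of all genes tested shows called genes at low and high abundance alike.

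**Figure D1:**
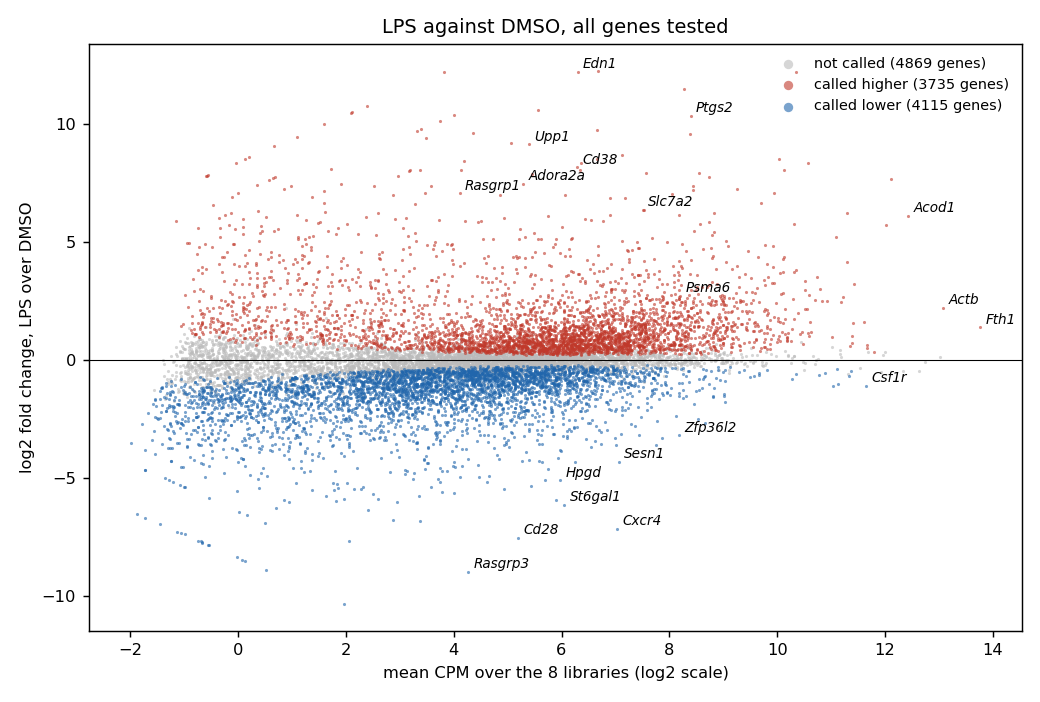
Each point is 1 of 12719 genes, with the mean CPM over the 8 libraries on a log2 scale along the horizontal axis and the log2 fold change (LPS over DMSO) on the vertical axis. Red points are the 3735 genes called higher, blue points the 4115 called lower, and named genes are discussed in the text.

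The balance between directions depended on how libraries were scaled. As a description of the called genes, those higher held 34.5 to 37.0% of all counts in the DMSO libraries and 65.1 to 67.8% in the LPS libraries, and those lower went from 24.9 to 26.6% to 7.90 to 8.87%. The 472 genes higher by a log2 of at least 3 went from 1.05 ± 0.265% to 13.7 ± 1.62% of counts (SD, n = 4). TMM factors were 1.18 to 1.30 with DMSO and 0.765 to 0.849 with LPS. The median over all genes tested was a log2 of −0.07 under TMM. It was −0.02 with RLE, −0.30 with upper-quartile and −0.70 with total-count scaling. Upper-quartile scaling gave 2992 higher and 5353 lower genes, and total-count scaling 1940 and 7522, with 160 of the genes called higher under TMM then called lower. Directions of gene groups below are those under TMM, and where another scaling turns the sign of a median this is said beside it. Counts in gene lists are to be read against the 29.4% higher and 32.4% lower over all genes tested. No measure of RNA per cell was used here.

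Gains and losses in absolute level were led by abundant genes. Fth1, the heavy chain of the iron store ferritin, was at 9462, 9658, 6215 and 5554 CPM in the DMSO libraries of mice 1 to 4 and at 21358, 22245, 18139 and 18699 CPM with LPS. Actb, cytoplasmic β-actin, rose from 3081, 3190, 2856 and 3064 to 14613, 15205, 12853 and 14133 CPM. The groups did not overlap for either gene, and these were the largest gains in mean CPM. Acod1, which makes itaconate, and Saa3, an acute-phase protein, gained next most, from means of 158 and 43.9 to 10842 and 8798 CPM. Among the largest losses were Csf1r, the receptor for CSF1, from 4391 ± 1384 to 2050 ± 278 CPM (log2 fold change −1.10, SE 0.23, adjusted p by edgeR = 0.00257), and Serinc3 (log2 −1.04), Selenop (−1.09, not called with RLE scaling), Laptm5 (−0.65) and Eef2 (−0.47). Apoe, Psap and Gpnmb lost CPM without passing the test, but were called lower when mouse was a block. Abundant genes with a narrow interval around no change were Eef1a1 (log2 −0.08, SE 0.16), the complement gene C1qc (0.01, SE 0.20), Slc6a6, Ctsb and Vim. This holds under TMM, and each of them was called lower with total-count scaling. Slc6a6 was also called higher with mice 1 and 2 alone and lower with mice 3 and 4 alone, so its steady mean covers opposite responses.

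Genes at the edge of detection in 1 group marked both ends of the range. In protein-coding genes, 28 were under 1 CPM in all DMSO libraries and over 10 CPM in all LPS libraries, and 12 were the reverse. Edn1, the vasoconstrictor endothelin 1, had 3 counts over the DMSO group and 107, 151, 163 and 208 CPM with LPS, a ratio of 5895 (95% counting interval 2017 to 28591). Itgb8, an integrin chain that activates latent TGF-β, had 2 counts with DMSO and 26.5, 17.5, 16.4 and 19.01 CPM with LPS, a ratio of 1081 (299 to 8941). Shisa3 had no count with DMSO and was at least 1087-fold higher, taking 3 counts over the group as the floor. Intervals and floors cover counting error only. Upp1, uridine phosphorylase, Cd38, an NAD-consuming ectoenzyme, Hdc, which makes histamine, and the transcription factor genes Lhx2 and Gfi1 were also of this kind.

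Among the 12 genes that went from over 10 to under 1 CPM were Rasgrp3, Cd28, Slco2b1, Rnf144b, Vipr1, Tns1, Mex3b and Pank1. Rasgrp3 (ENSMUSG00000071042, chromosome 17, 75742891 to 75836049, GRCm39), an exchange factor that activates Ras and Rap1, was at 29.4, 27.7, 47.4 and 49.2 CPM with DMSO and at 0, 0.0736, 0.120 and 0.0696 CPM with LPS. Among called protein-coding genes averaging 5 CPM or more, it had the largest decrease (log2 fold change −8.98, SE 0.42, adjusted p by edgeR = 4.14e-07). Cd28, known as a costimulatory receptor of T cells, went from 78.0, 75.4, 81.2 and 56.1 to 0.495, 0.515, 0.538 and 0 CPM. Cxcr4, the receptor for the marrow chemokine CXCL12, fell from 287, 254, 272 and 231 to 2.39, 1.84, 1.61 and 1.53 CPM. The mice agreed closely for Cxcr4, with log2 differences of −6.64, −6.77, −7.01 and −6.83. St6gal1, which adds α2,6-linked sialic acid to glycans, and Rnf150 and Rnf144b, which encode RING-type ubiquitin ligases, fell by 6.15, 5.92 and 6.03 on the log2 scale.

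In the list of the TLR4 receptor, adaptors and proximal kinases, 19 of 29 tested members were higher and 8 lower (median log2 0.60, and −0.02 with total-count scaling). The co-receptor gene Cd14 rose (log2 1.98), as did the adaptor Myd88 (2.02), the kinases Irak2 (2.77) and Map3k8 (2.11), and Tnip1 (2.63), which restrains NF-κB. Tlr4 itself fell from 108, 118, 120 and 120 to 30.6, 38.2, 59.5 and 56.7 CPM, and Peli2, a ubiquitin ligase of the IRAK complex, from 151, 143, 93.3 and 82.1 to 14.4, 9.27, 5.08 and 4.59 CPM. The groups did not overlap for either gene. Irak1, Irak4 and Tab1 fell by 0.59, 0.60 and 0.65.

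Of 28 MAP kinases and upstream kinases, 6 rose (21.4%) and 9 fell (32.1%; median −0.16), at or under the shares of 29.4% and 32.4% over all genes. Mapkapk2, the p38 effector kinase that stabilizes cytokine messages, rose from 482 ± 129 to 2836 ± 180 CPM (log2 fold change 2.56, SE 0.20, adjusted p by edgeR = 5.33e-06), while Mapk14, p38α, fell by 1.29 and its activator Map2k6 by 3.23. Map2k1, an activator of ERK, rose by 1.92. Among 26 Ras and Rap exchange factors and GTPase activators, 9 rose (34.6%) and 10 fell (38.5%), and the direction differed within families. Rasgrp1 was at 0.134, 0.378, 0.323 and 0.161 CPM with DMSO and at 32.6, 28.98, 41.5 and 33.9 CPM with LPS (log2 fold change 7.06, SE 0.28, adjusted p by edgeR = 2.68e-07), the opposite direction to Rasgrp3. Rapgef2 and Sos1 rose by 3.88 and 3.36, and Rasa3 fell by 1.49.

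Of 16 phosphodiesterases and adenylyl cyclases, 5 rose and 9 fell (median −0.78). Pde4b, the cAMP phosphodiesterase tied to LPS-induced TNF, rose from 49.0, 56.7, 30.5 and 24.9 to 222, 227, 284 and 274 CPM, and its paralog Pde4d fell from 1.75, 1.93, 1.87 and 2.60 to 0.247, 0.368, 0 and 0.0696 CPM. Pde3b and Adcy9 fell by 3.55 and 2.68. The adenosine receptor genes rose, namely Adora2a, whose product raises cAMP, from 0.453 ± 0.271 to 77.8 ± 6.46 CPM (log2 7.47), Adora2b by 3.65 and Adora3 by 3.32. P2rx7, an ATP-gated channel, and P2ry1, a G protein-coupled receptor for ADP, fell by 1.66 and 4.58. In the purinergic list of 12, 4 members were called in each direction (33.3%, near the shares over all genes), with 2 lower without mouse 3 or mouse 4.

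In the Gpr and Adgr families, 20 of 36 fell and 10 rose (median −0.70). Gpr34, a receptor for lysophosphatidylserine, went from 25.7, 15.8, 9.01 and 7.55 to 0.330, 0.221, 0 and 0 CPM, and Gpr183, the oxysterol receptor EBI2, from 15.3, 13.8, 28.3 and 30.8 to 0.412, 0.588, 1.73 and 1.46 CPM. Gpr84, a receptor for medium-chain fatty acids, rose by 4.22 and Gpr18 by 4.71. S1pr1, the sphingosine 1-phosphate receptor that guides exit from tissue, fell from 96.3, 77.6, 95.4 and 93.6 to 4.53, 4.12, 4.72 and 5.29 CPM. The groups were far apart for each of these.

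**Figure D2:**
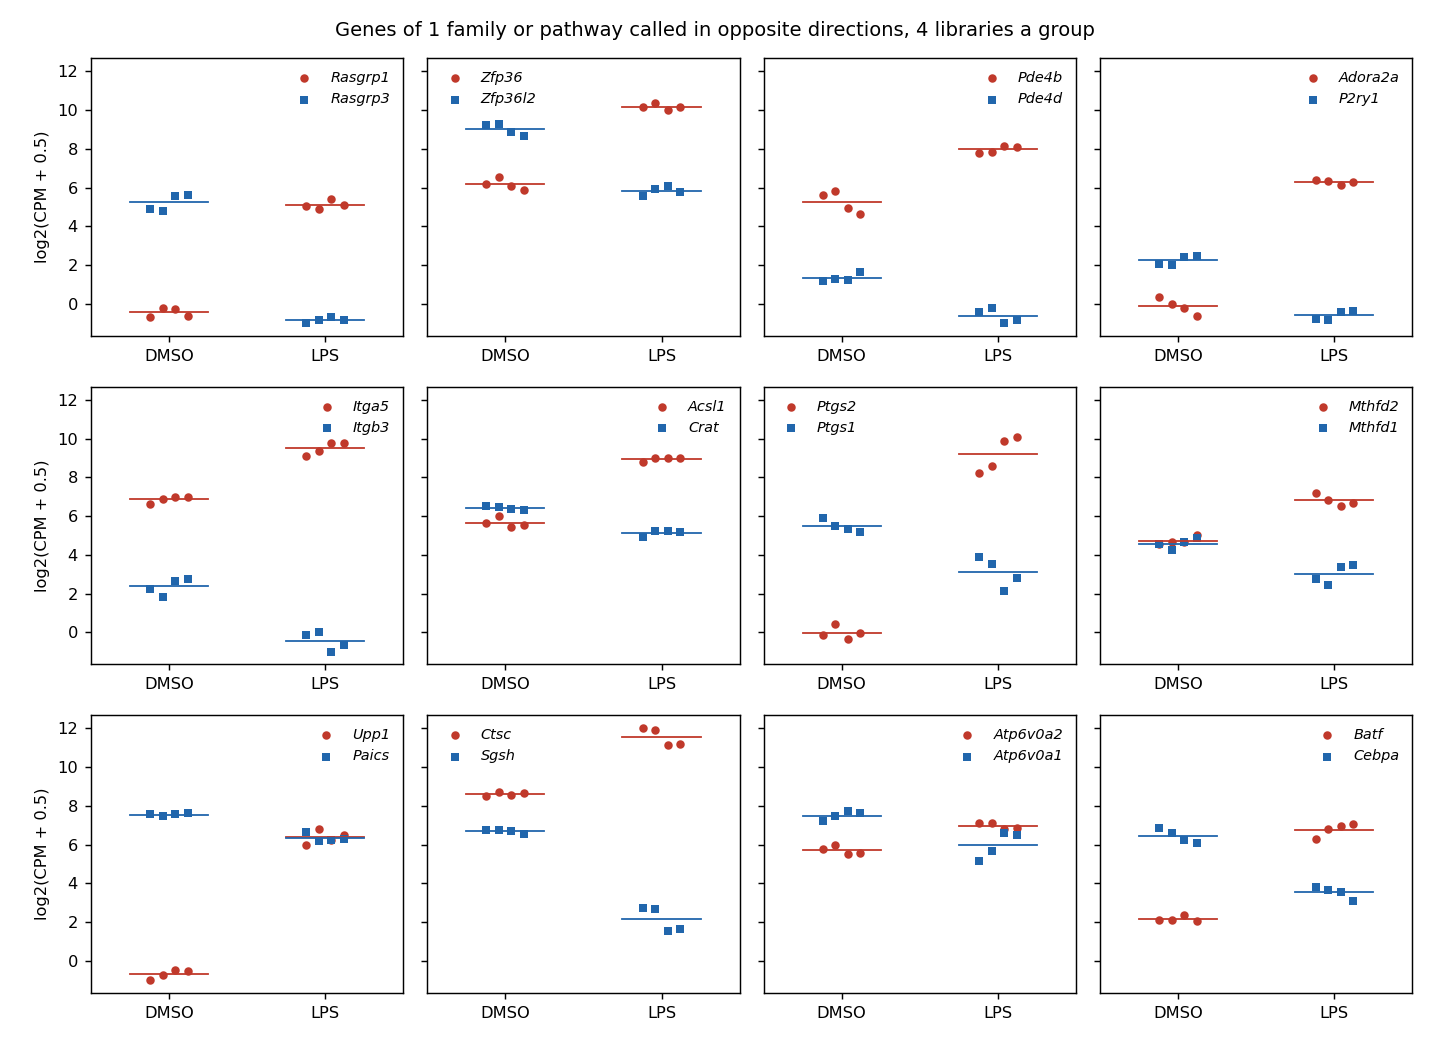
Each panel shows a pair of genes from the same family or pathway, with log2(CPM + 0.5) in the 4 DMSO and 4 LPS libraries (points, in the order of mice 1 to 4 from left to right) and their mean (line). Red circles are the gene called higher with LPS and blue squares the gene called lower in each family. CPM is not per length, so levels compare libraries, not genes.

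Semaphorins, plexins and neuropilins, known from axon guidance and cell migration, had 11 of 17 members lower and 4 higher (median −1.50). Among the lower ones were Plxnd1 (log2 −2.50) and Plxnc1 (−2.08), whereas Sema4c rose from 12.5, 11.7, 10.3 and 10.3 to 224, 333, 293 and 288 CPM. Integrins had 7 of 17 members higher and 4 lower (median 0.23, and −0.39 with total-count scaling). The fibronectin receptor chain Itga5 rose by 2.67, and Itgb3 and Itga6 fell by 4.25 and 1.67. In the TGF-β and BMP list, 12 of 30 rose and 9 fell (median 0.24, and −0.37 with total-count scaling). The receptor genes Tgfbr1 and Tgfbr2 fell by 3.32 and 1.27 and the signal carrier Smad3 by 2.34, while the activin subunit gene Inhba rose by 5.93.

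Of 184 solute carrier genes, 51 rose (27.7%) and 76 fell (41.3%; median −0.24). Slc7a2 (ENSMUSG00000031596, chromosome 8, 41315433 to 41375345), the cationic amino acid transporter that brings in arginine, rose from 4.39, 4.12, 4.07 and 5.04 to 283, 309, 425 and 425 CPM (log2 fold change 6.35, SE 0.20, adjusted p by edgeR = 1.53e-07). Slc28a2, a nucleoside transporter, rose by 5.29, the mitochondrial glutamate carrier Slc25a22 by 3.44 and the glucose transporter Slc2a1 by 3.39. On the other side, Slc43a2, which carries neutral amino acids, fell from 808, 804, 635 and 548 to 85.2, 96.1, 144 and 109 CPM. The lysosomal Slc46a3 fell by 5.10, the sulfate and anion carrier gene Slc26a11 by 5.17 and Slc37a2 by 2.80.

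In the list of purine and pyrimidine synthesis and salvage, 7 of 34 rose and 19 fell (median −0.80). Upp1 was at 0, 0.113, 0.226 and 0.193 CPM with DMSO and at 62.6, 110, 75.0 and 88.6 CPM with LPS. Pnp, purine nucleoside phosphorylase, rose by 3.52, the dNTP hydrolase Samhd1 by 2.76 and guanine deaminase Gda by 2.87. Pnp has a close paralog, Pnp2 (log2 4.37), from which shared reads may not have been told apart. Among those that fell were Paics (−1.20), Adss (−1.13) and Dhodh (−1.32).

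In the one-carbon list of 19, 5 were higher and 7 lower, near the shares over all genes. The mitochondrial Mthfd2 rose by 2.11, whereas the cytosolic Mthfd1 fell by 1.56 and methionine synthase, Mtr, from 57.4, 57.5, 68.5 and 62.1 to 10.2, 8.90, 13.7 and 15.7 CPM. In NAD metabolism (6 of 20 in each direction), the consuming enzyme Cd38 rose from 0.761, 0.944, 0.226 and 0.289 to 123, 163, 190 and 144 CPM and the salvage enzyme Nampt by 2.44, and Nmnat3, Sirt3 and Naprt fell by 2.25, 2.15 and 1.63. Fatty acid oxidation genes had 17 of 32 members lower and 8 higher (median −0.43). The acyl-CoA synthetase Acsl1 rose from 50.5 ± 9.39 to 493 ± 33.7 CPM while Crat, Hadh and Crot fell by 1.30, 1.76 and 1.93. Lpin1, a phosphatidate phosphatase, fell from 32.5, 28.6, 21.4 and 21.5 to 0.659, 1.25, 0.777 and 0.209 CPM. Idh1, the cytosolic isocitrate dehydrogenase, fell by 2.40.

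The cyclooxygenase genes moved in opposite directions. Ptgs2, the inducible cyclooxygenase, rose from 0.403, 0.869, 0.291 and 0.482 to 297, 385, 935 and 1070 CPM, and Ptgs1, the constitutive form, fell from 58.8, 44.2, 40.5 and 36.0 to 14.3, 10.9, 3.95 and 6.54 CPM. Ptges, which makes prostaglandin E2, rose by 7.37. Hpgd, which inactivates prostaglandins, fell from 106, 114, 155 and 115 to 3.38, 5.07, 3.47 and 2.37 CPM, and the leukotriene and thromboxane enzymes Alox5 and Tbxas1 fell by 1.87 and 1.45. Over the list of 22, 7 rose and 12 fell (median −0.74).

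Translation genes were followed by compartment. None of 17 mitochondrial aminoacyl-tRNA synthetases rose and 13 fell (76.5%, median −0.66), among them Vars2, from 15.7, 19.6, 17.7 and 17.1 to 6.84, 7.94, 6.63 and 6.75 CPM, and Iars2 (−0.59). Mitochondrial ribosomal protein genes did not share this, with 20 of 77 higher (26.0%) and 22 lower (28.6%; median −0.09), near the shares over all genes. Of 23 cytosolic synthetases, 8 rose and 3 fell (median 0.12, and −0.11 with upper-quartile and −0.49 with total-count scaling). Rars and Wars rose by 1.93 and 1.71, and Qars fell by 0.77. Of 78 cytosolic ribosomal protein genes, 0 rose and 4 fell (5.13%; median −0.09), among them Rpl3 (−0.40). The 4 became 0 without mouse 2, 3 or 4, 11 with 2 higher when mouse was a block, and 32 with upper-quartile scaling. With total-count scaling 74 of the 78 were called lower, and their share of all counts went from 3.16% to 1.91% with no overlap between groups (exact two-sided permutation p = 0.02857, the smallest that 70 splits allow, adjusted p = 0.05714 over 6 summaries). The splits ignored the pairing by mouse. Most of these genes have processed pseudogenes, which can take up reads. Among 70 initiation and elongation factors, 25 rose and 14 fell (median 0.22, −0.01 with upper-quartile and −0.40 with total-count scaling). Eif4g2 rose from 718 ± 41.0 to 3967 ± 445 CPM, and Eef2k, the kinase that slows elongation, fell from 26.5, 21.3, 16.8 and 17.7 to 2.14, 0.883, 0.359 and 1.18 CPM.

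Zfp36, which encodes the decay factor tristetraprolin, rose from 71.2, 92.3, 66.8 and 58.6 to 1133, 1304, 1015 and 1155 CPM, and the endonuclease gene Zc3h12a by 3.22. Both limit cytokine messages. The tristetraprolin relatives fell: Zfp36l2 from 593, 622, 470 and 410 to 46.7, 61.3, 67.4 and 54.6 CPM, and Zfp36l1 by 2.54. In the whole list of decay and binding proteins, 22 of 53 rose and 13 fell (median 0.19, −0.03 with upper-quartile and −0.43 with total-count scaling). Genes named Zfp, most of which encode C2H2 zinc finger proteins, fell in 145 of 318 cases (45.6%) and rose in 29 (9.12%; median −0.45). Zfp704 and Zfp395 fell by 4.50 and 3.19. An exception was Zfp811, which went from 0.0895, 0.113, 0.0646 and 0.161 to 16.6, 11.4, 12.7 and 17.1 CPM.

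Of 692 long noncoding RNA genes, 129 (18.6%) rose and 284 (41%) fell, against 30% and 33.3% of 11235 protein-coding genes. The difference between the biotypes was not tested. U90926 had no count with DMSO and was at least 314-fold higher, and Gm15513 was at 8.50, 6.46, 9.01 and 7.03 CPM with DMSO and had no count with LPS, at least 147-fold lower. Host genes of small nucleolar RNAs, which guide modification of ribosomal RNA, fell in 9 of 14 cases with 0 higher (median −0.97), for example Gas5 (−0.99) and Snhg15 (−1.57). Libraries were made by poly(A) capture, so transcripts without a tail were largely outside the measurement.

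Host transcripts of 2 microRNAs rose in all 4 mice. Mir155hg (ENSMUSG00000097418, chromosome 16, 84500055 to 84512133) went from 0.0895, 0.189, 0.0323 and 0 to 20.9, 18.02, 22.2 and 21.7 CPM, and Mir22hg from 15.3, 14.1, 12.1 and 11.8 to 57.1, 74.3, 79.9 and 68.9 CPM. The mature products were not measured. Their RefSeq sequences are shown with the seed, bases 2 to 8, in capitals, because the seed sets which messages a microRNA can pair with, and the 2 seeds differ.
mmu-miR-155-5p: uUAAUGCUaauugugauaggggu
mmu-miR-22-3p: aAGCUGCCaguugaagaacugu

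Of 48 proteasome genes, 38 were higher (79.2%) and 2 lower, with a median log2 of 0.85 that stayed above 0 with upper-quartile (0.62) and total-count scaling (0.23). Psma6 (ENSMUSG00000021024, chromosome 12, 55431007 to 55465239), a core subunit, rose from 82.8, 72.7, 76.1 and 79.5 to 459, 447, 566 and 574 CPM (log2 fold change 2.72, SE 0.12, adjusted p by edgeR = 3.44e-07). Psma5 rose by 1.44, and the immunoproteasome subunit genes Psmb8 and Psmb10 and the activator gene Psme2 by 1.67, 2.46 and 2.55. The members that fell were the assembly chaperones Psmg2 (−0.91) and Psmg4 (−0.52), the latter not called when any 1 mouse was left out. Adaptors of cullin ubiquitin ligases went the other way, with 35 of 80 lower and 12 higher (median −0.24), for example Klhl6 (−3.47) and Fbxl20 (−2.84).

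Chaperone, vesicle and respiratory chain lists had more members higher than lower under TMM, but their medians turned negative with total-count scaling. Heat shock proteins and co-chaperones had 33 of 80 members higher and 16 lower (median 0.27, and −0.36 with total-count scaling). Hspa1a rose from 1.12, 1.74, 1.45 and 1.70 to 91.0, 125, 105 and 101 CPM. Its near-identical copy Hspa1b rose by 5.62, and reads shared by the copies may not have been told apart. Dnaja1 rose by 2.34. Vesicle coat and tethering genes had 32 of 61 members higher and 4 lower (median 0.38, and −0.24), with Sec23b at 1.74 and Sec24b at 1.60. Rab GTPases had 21 of 43 members higher and 7 lower (median 0.46, and −0.16), with Rab10 at 1.76 and Rab1a at 1.35. Respiratory chain subunits of complexes III to V had 16 of 37 members higher and 1 lower (median 0.25, and −0.38), by small amounts such as 0.61 for Atp5pb. The 16 became 6, 6 and 7 without mouse 2, 3 or 4, and the list had 2 higher and 5 lower with upper-quartile and 0 and 23 with total-count scaling. Nuclear complex I subunits were mostly not called, with 7 of 38 higher (18.4%, under the 29.4% of all genes) and 4 lower. Their median was 0.08, −0.14 with upper-quartile and −0.54 with total-count scaling. Of 12 mitochondrially encoded messages, 2 were higher and 0 lower (median 0.12, −0.11 and −0.50 with these scalings).

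Lysosomal hydrolases had 21 of 59 members lower (35.6%) and 12 higher (20.3%), with a median of −0.28. Over all genes 32.4% were lower and 29.4% higher, so the lower share was near that of all genes. Ctsc, the cathepsin that activates other proteases, rose from 369, 412, 374 and 405 to 4172, 3826, 2255 and 2318 CPM. Sgsh, a heparan sulfatase, fell from 107, 107, 105 and 92.4 to 6.10, 5.81, 2.39 and 2.65 CPM, and Lipa, the acid lipase, from 812 ± 13.7 to 233 ± 23.6 CPM. Autophagy genes had 18 of 40 members lower and 8 higher (median −0.22), and the initiating kinase genes Ulk1 and Ulk2 fell by 2.20 and 2.22 while the receptor genes Tax1bp1 and Optn rose by 2.32 and 2.16. Within the proton pump, the a subunits diverged: Atp6v0a2 rose by 1.26 and Atp6v0a1 fell by 1.43.

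Of 50 genes of actin nucleation and branching, 32 were higher and 6 lower (median 0.77, and 0.15 with total-count scaling). Fscn1, fascin, which bundles filaments in cell protrusions, went from 0.582, 0.567, 0.129 and 0.578 to 34.4, 49.4, 73.4 and 73.9 CPM. Cyfip1 rose by 2.05, while the severing protein gene Gsn fell by 0.50 (not called without mouse 4). Kinesins and dyneins had 26 of 45 members lower and 11 higher (median −1.04). Dync1i2 rose by 2.36 and Kifc3 fell by 2.98. Kinesins of the mitotic spindle belong to this list and to the next group.

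Cell division and DNA repair genes were mostly lower. In the mitosis and kinetochore list, 45 of 61 fell (73.8%) and 1 rose (median −1.37). Kif23, a motor of cytokinesis, was at 54.6, 51.0, 122 and 119 CPM with DMSO and at 17.2, 12.2, 13.6 and 14.6 CPM with LPS. The DMSO libraries of mice 3 and 4 were above those of mice 1 and 2, whereas the LPS libraries lay close together. The riser was Pttg1, securin, from 20.4, 23.5, 18.2 and 18.4 to 157, 162, 86.4 and 102 CPM. In the replication list, 32 of 51 members were lower and 2 higher (median −1.05). Dna2 and Wdhd1 fell by 3.55 and 3.19, and the risers were Orc4 (1.12) and Timeless (1.53). Genes of homologous recombination, the Fanconi pathway and mismatch repair had 32 of 47 members lower and 1 higher (median −1.12), and the list of base and nucleotide excision repair had 21 of 39 lower and 5 higher (median −0.51). Without mouse 3 or mouse 4 the first of these repair lists had 20 lower in each case, and the mitosis list had 31 and 32. Chek2, a checkpoint kinase, fell by 3.00 and the damage sensors Xpc and Parp1 by 2.20 and 1.39.

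Promoters of the division genes were searched because the members moved together. The 250 bases before each gene's start in the RefSeq table (GRCm38.p6) were searched on both strands for 11 motifs. The CCAAT box (CCAAT) was in 36 of 52 promoters found for the mitosis list (69.2%), against 37.0% of 9051 promoters of protein-coding genes tested and 34.5% of all 27025 in the table. It was also in 61.1% of those of the first repair list, 52.4% of the replication list and 49.1% of the Zfp genes. Among protein-coding genes called lower by a log2 of at most −1, 40.9% of promoters held it. The E2F motif (TTTCCCGC) was in 4 of 42 replication, 4 of 36 repair and only 1 of 52 mitosis promoters, against 1.92% of those tested. The interferon-stimulated response element, described below, was also in 4 of 36 repair promoters (11.1%), against 2.97% of those tested. A match describes letters, not binding. The 2 called members of the mitosis list of smallest p that hold the CCAAT box are shown, with the box, read from the other strand, in capitals.
Cdc25b, chr2:131186698-131186947, plus strand: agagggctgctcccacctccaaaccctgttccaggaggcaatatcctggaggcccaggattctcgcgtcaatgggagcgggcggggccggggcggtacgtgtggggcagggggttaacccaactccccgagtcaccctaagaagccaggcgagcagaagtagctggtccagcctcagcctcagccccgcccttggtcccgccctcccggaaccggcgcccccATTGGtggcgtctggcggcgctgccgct
Kif23, chr9:61946800-61947049, minus strand: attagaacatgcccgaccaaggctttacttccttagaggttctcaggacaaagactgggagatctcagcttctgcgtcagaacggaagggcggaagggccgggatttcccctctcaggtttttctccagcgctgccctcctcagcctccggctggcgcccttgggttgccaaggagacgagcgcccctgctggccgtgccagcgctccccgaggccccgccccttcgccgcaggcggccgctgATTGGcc

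Of 37 genes of the Bcl2 family, caspases and death receptors, 21 rose and 8 fell (median 0.79, and 0.17 with total-count scaling). The antiapoptotic gene Bcl2a1d rose from 0.895, 1.85, 0.743 and 0.739 to 142, 128, 107 and 155 CPM, and Bcl2a1a by 8.05; these are near-identical copies. Cflar, the inhibitor of caspase 8, rose by 3.09. The proapoptotic genes Bmf, Pmaip1 and Bcl2l11 fell by 4.22, 1.90 and 1.16. Among 28 p53 targets, 8 rose and 14 fell (median −0.44). Cdkn1a, which encodes the cell cycle inhibitor p21, rose by 2.07 and Mdm2 by 1.52. Sesn1, which restrains mTORC1, fell from 247, 235, 275 and 264 to 9.56, 9.27, 19.01 and 13.3 CPM.

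Of 52 transcription factors of the macrophage lineage and its activation, 28 rose and 9 fell (median 0.72, and 0.10 with total-count scaling). Batf rose from 3.89, 3.89, 4.59 and 3.60 to 76.8, 111, 122 and 134 CPM, Ets2 by 3.73 and Bcl3 by 2.72. Cebpa, a factor of myeloid commitment, fell from 116, 96.0, 75.2 and 67.0 to 13.7, 12.1, 11.3 and 8.08 CPM. Nuclear receptors had 10 of 23 members lower and 7 higher (median −0.47). The liver X receptor gene Nr1h3 rose by 2.13, while the gene of its partner, Rxra, fell by 2.20.

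Surface receptors of immune regulation were mixed. Immunoglobulin-like receptors had 27 of 55 members higher and 15 lower (median 0.76, and 0.16 with total-count scaling), with Slamf7 at 3.84 and Siglece at 2.74. Havcr2, which encodes TIM-3, fell from 33.2, 26.2, 35.8 and 44.3 to 3.05, 1.84, 2.45 and 2.85 CPM, Cd300a by 2.84 and Trem2, a lipid receptor, by 1.31. TNF superfamily ligands and receptors had 17 of 28 members higher and 8 lower (median 1.14). Cd40 rose from 8.03 ± 2.43 to 574 ± 88.0 CPM, and Tnfsf12 fell by 1.71.

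Cytokine and interferon-inducible genes, the familiar targets of LPS, followed. All 16 tested cytokine genes were higher (median 5.31) and 17 of 21 chemokine genes (median 5.84), with Ccl27a and Cxcl14 lower by 1.44 and 1.26. Tnf was at 9.35, 17.8, 9.85 and 11.8 CPM with DMSO and at 790, 759, 960 and 1097 CPM with LPS. Of 17 guanylate-binding and interferon-inducible GTPases, which attack vacuoles of intracellular pathogens, 16 rose and 0 fell (median 3.78). Gbp2 went from 54.2, 81.5, 19.3 and 29.03 to 2670, 2900, 2138 and 2279 CPM. All 7 tested Schlafen genes rose (median 2.50), led by Slfn4, from 3.31, 6.54, 2.39 and 3.92 to 292, 585, 633 and 597 CPM. Poly(ADP-ribose) polymerases had 10 of 17 members higher and 3 lower (median 1.02), with Parp12 at 2.82 and Parp11 at 2.37 on 1 side and Parp16 at −2.55 on the other. Members of the Gbp, Tgtp and Slfn families have close copies, and how shared reads were counted is not known here.

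The interferon-stimulated response element, searched as GAAA and again GAAA after any 2 bases, was in 9 of 10 promoters found for the guanylate-binding list and in 3 of 7 for the Schlafen list, against 2.97% of promoters of protein-coding genes tested and 7.08% of those called higher by a log2 of at least 1. The NF-κB motif, searched as GGG and, after any 2 bases, TTTCC, was in 2.75% of the latter and in 1.44% of all tested. Promoters are shown for the 2 called members of smallest p that hold the element in each family, with the element on either strand in capitals. In all 4 it lies 45 to 77 bases before the start.
Tgtp1, chr11:48992247-48992496, minus strand: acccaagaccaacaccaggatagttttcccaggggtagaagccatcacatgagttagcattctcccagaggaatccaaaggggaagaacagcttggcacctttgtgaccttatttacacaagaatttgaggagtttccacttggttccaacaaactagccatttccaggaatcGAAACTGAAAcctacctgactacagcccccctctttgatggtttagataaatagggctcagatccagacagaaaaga
Gbp2, chr3:142620413-142620662, plus strand: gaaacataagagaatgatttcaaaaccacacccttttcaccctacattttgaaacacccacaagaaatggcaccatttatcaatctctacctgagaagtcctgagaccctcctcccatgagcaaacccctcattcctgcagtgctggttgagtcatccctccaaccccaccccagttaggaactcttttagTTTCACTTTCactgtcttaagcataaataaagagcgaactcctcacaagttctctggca
Slfn8, chr11:83020811-83021060, minus strand: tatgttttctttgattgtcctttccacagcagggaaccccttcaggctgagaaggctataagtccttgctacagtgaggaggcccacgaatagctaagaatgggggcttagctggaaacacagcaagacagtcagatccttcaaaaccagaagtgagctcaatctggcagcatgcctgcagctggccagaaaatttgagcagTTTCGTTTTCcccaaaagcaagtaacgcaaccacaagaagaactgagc
Slfn9, chr11:82991831-82992080, minus strand: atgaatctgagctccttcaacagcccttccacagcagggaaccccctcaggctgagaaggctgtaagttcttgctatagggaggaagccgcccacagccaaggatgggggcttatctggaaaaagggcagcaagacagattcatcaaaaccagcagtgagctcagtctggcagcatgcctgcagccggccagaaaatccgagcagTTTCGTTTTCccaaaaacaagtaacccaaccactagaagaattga

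**Figure D3:**
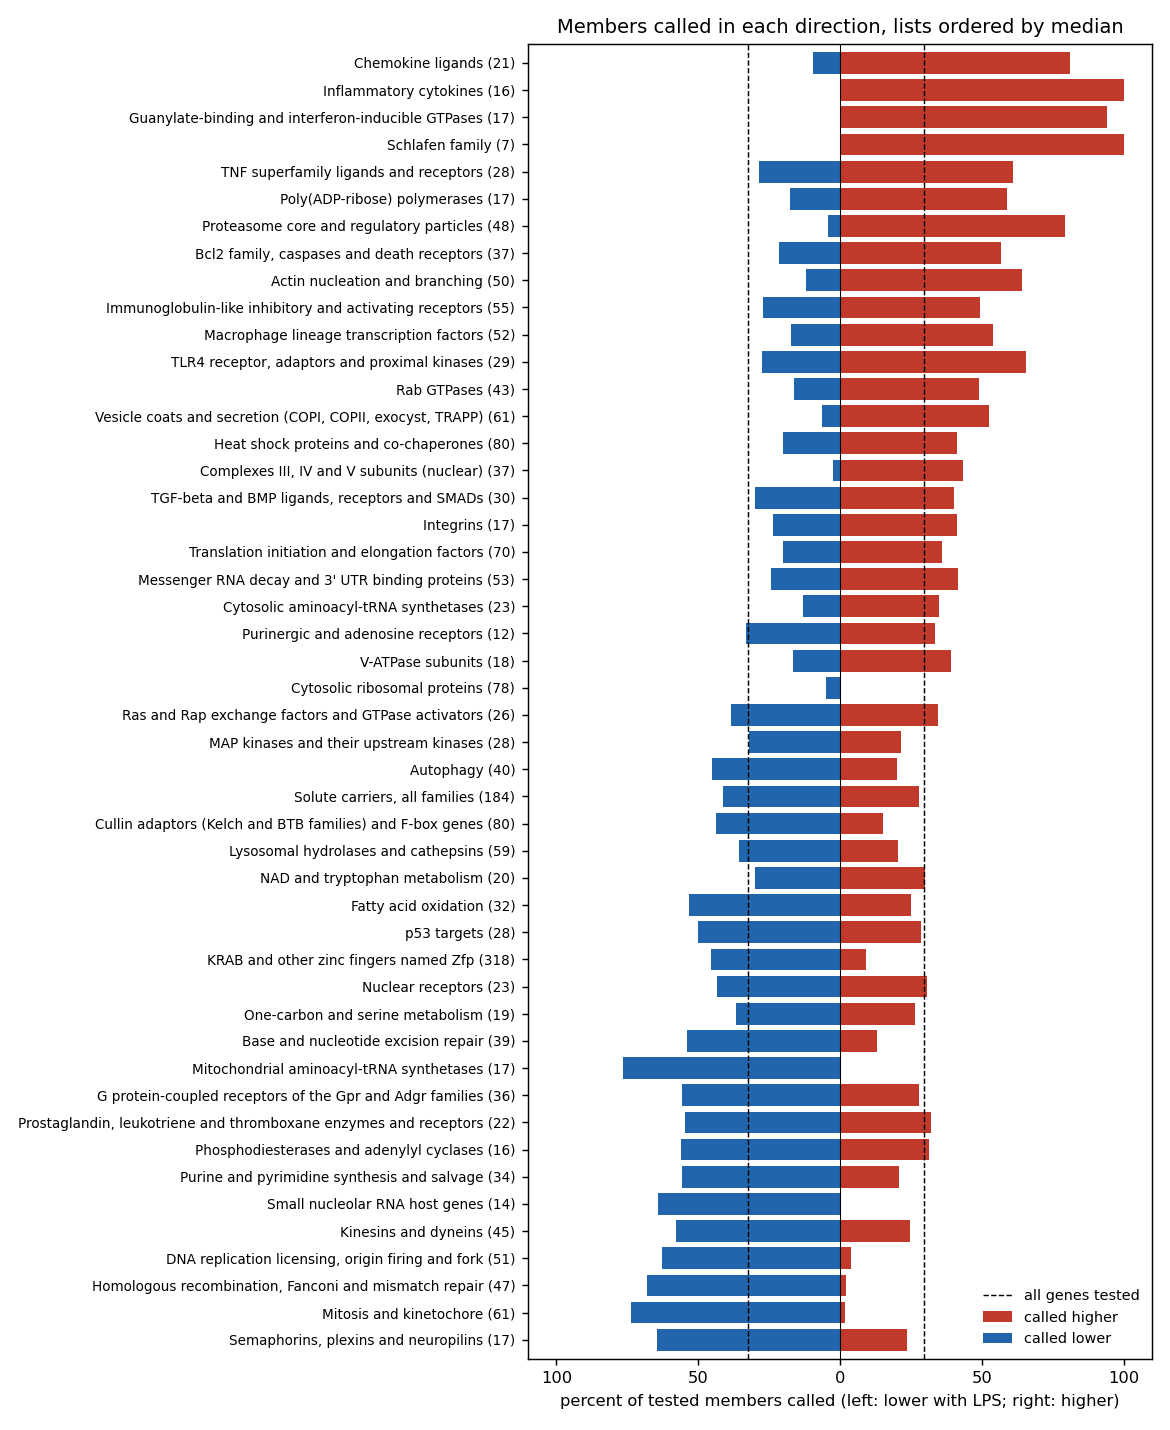
Bars give the percent of tested members (number in brackets) called higher with LPS (red, right) or lower (blue, left) for the gene lists described, ordered by median log2 fold change. The lists of complex I, mitochondrially encoded messages and mitochondrial ribosomal proteins are not drawn. Dashed lines are the shares over all genes tested, 29.4% and 32.4%; cytokines, Schlafen genes, guanylate-binding GTPases and the proteasome lie beyond the line on the right, and mitosis, repair and mitochondrial synthetases on the left.

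**Figure D4:**
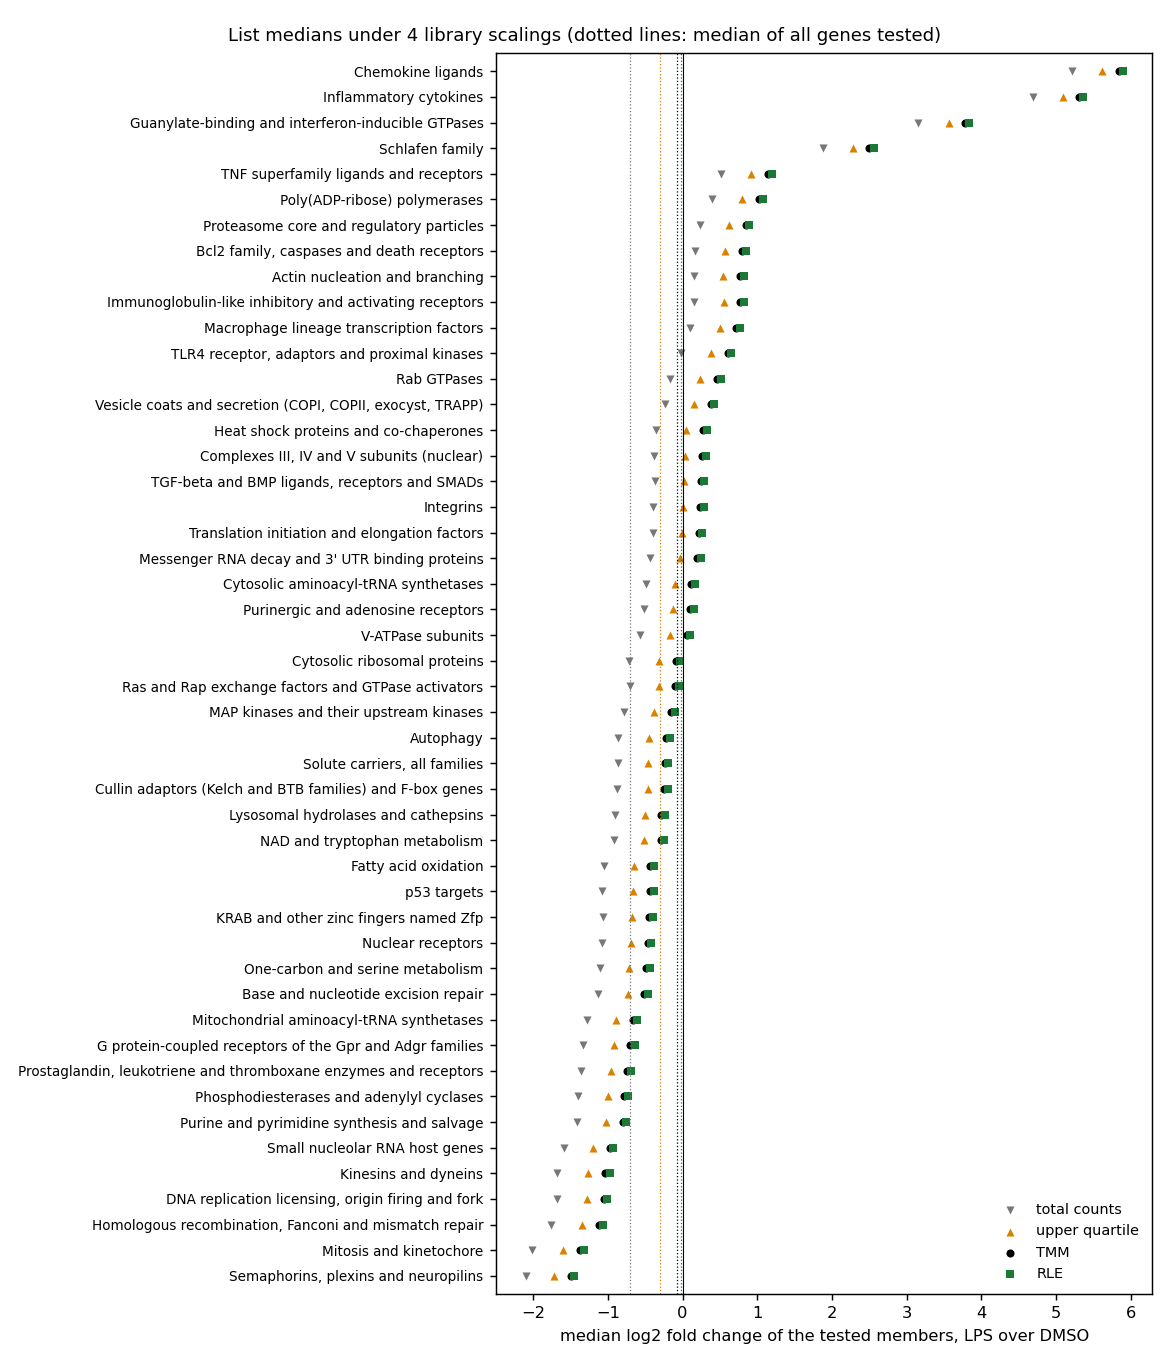
Points give the median log2 fold change of each list under TMM, RLE, upper-quartile and total-count scaling, and dotted lines the median of all genes under each, from −0.02 to −0.70. Medians lie slightly higher under RLE than under TMM and lower under the other scalings, and several slightly above 0 under TMM lie below 0 under total-count scaling.

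The mice did not respond alike in every gene. Deviations from the group means correlated across genes within each mouse (Pearson r 0.301 to 0.343 over genes, which are not independent replicates) and also between mice 1 and 2 and between mice 3 and 4 (0.151 to 0.273), and were negative between these pairs. The deviations of a gene sum to 0 within a group, so positive values with some libraries oblige negative ones with others. The labels name no batch. Among called protein-coding genes averaging 5 CPM or more, Il1b, Cxcl2, Ccne2, Il18rap and Il1a had the largest spread of the log2 difference. Il1b was at 6.94, 7.03, 0.969 and 0.803 CPM with DMSO and at 429, 578, 1133 and 1242 CPM with LPS, so that the lower starting levels went with the higher final ones. Cxcl2, a neutrophil chemokine, rose by 2.76, 2.37, 6.20 and 5.87 in mice 1 to 4. Il18rap, a receptor chain for interleukin 18, went the other way, with 3.76, 3.53, 0.16 and 0.94. Ccne2, cyclin E2, which drives entry into S phase, was at 2.91, 3.25, 23.2 and 27.2 CPM with DMSO and at 4.45, 2.65, 2.87 and 2.51 CPM with LPS, and its log2 fold change of −2.19 became 0.25 with mice 1 and 2 alone. Mice 1 and 2 alone gave 3999 higher and 4255 lower genes and mice 3 and 4 alone 4519 and 4630, of which 3448 and 3530, and 3542 and 3727, were called in the same direction with all 4 mice.

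**Figure D5:**
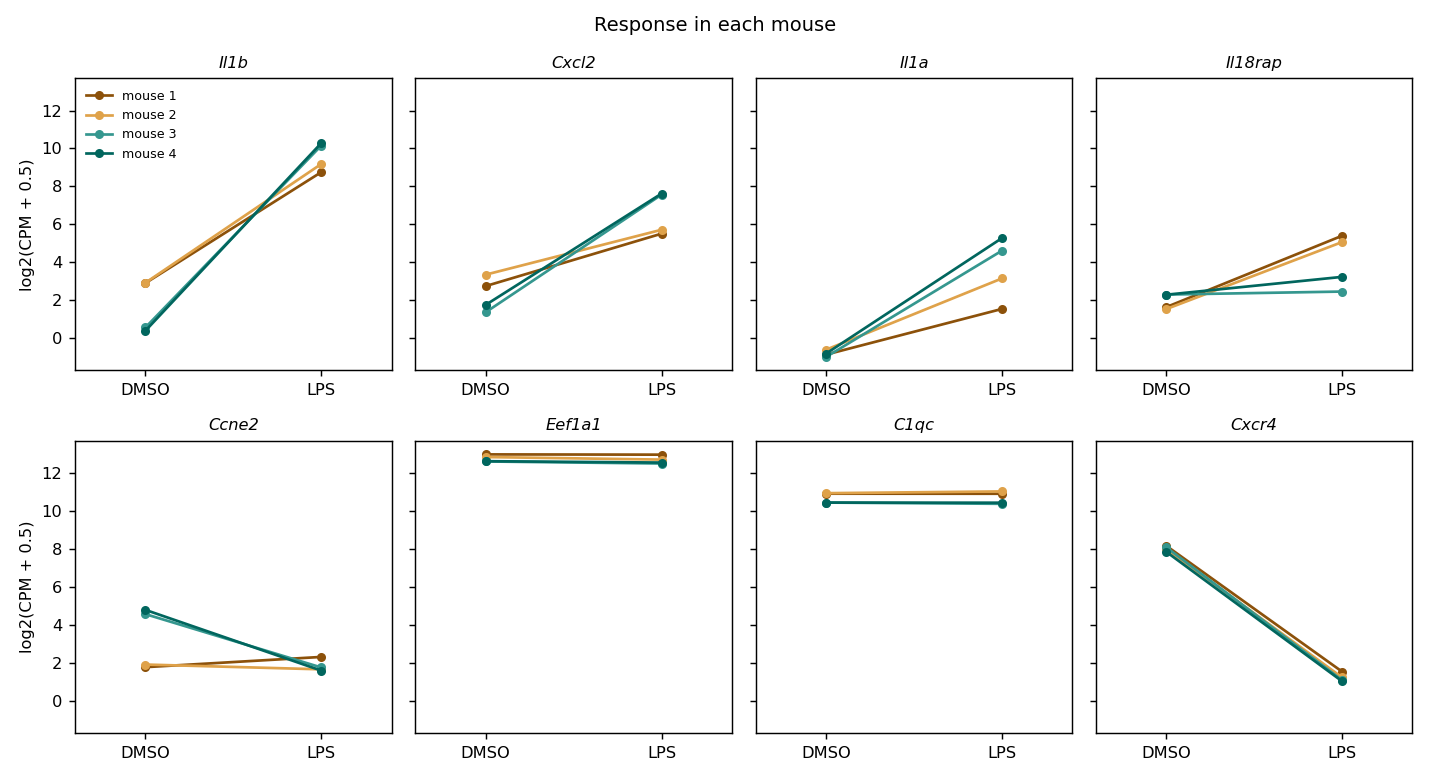
Lines join the DMSO and LPS libraries of each mouse on a log2(CPM + 0.5) axis shared by all panels. Il1b, Cxcl2, Il1a, Il18rap and Ccne2 are the genes with the largest spread between mice. Eef1a1 and C1qc were steady under TMM, and the 4 lines for Cxcr4 nearly coincide.

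The same change was followed in the other 8 libraries, where cells had received 10 µM SR9009 overnight (16 hours), with or without LPS for 6 hours afterwards. They share mice but no library with the comparison above. Of the 3735 genes called higher, 90.7% also had a positive log2 fold change there, and of the 4115 called lower, 95.9% had a negative one, against the same sign in 66.5% of uncalled genes. Rasgrp3 fell by 7.11 in those cells, Cxcr4 fell by 6.56 and Hpgd fell by 5.05, and Slc7a2 rose by 5.17, Adora2a by 7.62 and Psma6 by 1.85. A test of the interaction over 13438 genes in all 16 libraries called 0 genes higher and 1 lower (0.00744%), with 959 at an unadjusted p under 0.05. It was Gm5150, which rose from 2.97 ± 0.381 to 23.1 ± 6.03 CPM without SR9009 (log2 2.96 in the 8 libraries) and by 0.24 with it (interaction log2 −2.72, edgeR adjusted p = 0.0168). The call of Gm5150 was lost without mouse 2, 3 or 4, without any 1 of the DMSO libraries, with limma-voom and with no filter, among other settings. The count of calls changed with the tool, the block and 1 library: DESeq2 called 53 and 50, edgeR with mouse as a block 11 and 4, and edgeR without the SR9009 library of mouse 1 called 17 and 24. That library had stood apart in an earlier fit. The common coefficient of variation between libraries of a group was 0.377 with all 16 libraries and 0.224 with the 8 above. The few calls therefore do not show that the responses were alike.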

How the data were processed

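Poly(A) RNA of bone marrow-derived macrophages was sequenced. The authors deposited raw read counts per gene for 16 libraries; HISAT2 and the build GRCm39 (mm39) are named in, and credited per, the submitters' processing notes. Which program counted reads, with which annotation and strand setting, is not given in the sources used here, so reads of overlapping and antisense genes may not have been told apart. The authors also deposited FPKM values, used here only in an alternative fit.

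From the counts of the 8 DMSO and LPS libraries, genes were kept with filterByExpr, scaled by TMM and tested with the edgeR 4.0.16 (R 4.3.3) robust quasi-likelihood test with Benjamini-Hochberg adjustment at 0.05, without the mouse as a block. An interaction was fitted over all 16 libraries. CPM values use library sizes multiplied by TMM factors, and per-mouse log2 differences add 0.5 CPM. Standard errors are of the log2 fold change. Simulated counts covered 12538 genes, of which 100 were changed by a log2 of 1 and 99 by 2. The test recovered 65% of the former and 93.9% of the latter, with 12 calls among unchanged genes. In the 8 libraries 61.7% of genes were called, and recovery with that many changed genes was not tested. Same-numbered libraries come from the same mouse per the labels, and their deviations correlated at 0.301 to 0.343. The 86 gene lists, the named genes and the comparison itself were chosen with earlier results of these data known. Genes were named by rules on size, abundance or smallest p in each list; those at the edge of detection and the cell type markers were added after values were seen. Alternatives covered scaling, filter, tool, unit, block and left-out libraries; total-count scaling and the fits of mice 1 and 2 or 3 and 4 alone were added after seeing the data. A few genes are not reported here.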

Additional observations from a re-analysis of the deposited data

Results flagged for a closer look

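A sample lay far from the other 3 of its group, by Dixon's criterion for 4 samples, in 18 of 426 groups checked. Chance flags about 1 in 20 groups, so these are no more than chance gives. In the DMSO group these were mouse 2 for Alox5 (125 CPM), Bcl2a1d (1.85 CPM) and S1pr1 (77.6 CPM), mouse 3 for Fscn1 (0.129 CPM) and Hpgd (155 CPM), and mouse 4 for Cdkn1a (320.0 CPM) and Sgsh (92.4 CPM). In the LPS group these were mouse 1 for Adcy9 (5.69 CPM), Bcl3 (219.7 CPM), Crat (29.5 CPM), Psmg4 (4.37 CPM), Rpl3 (701 CPM) and Slfn4 (292 CPM), mouse 2 for Saa3 (10253 CPM) and Vars2 (7.94 CPM), mouse 3 for Cd40 (442 CPM) and mouse 4 for Chek2 (4.73 CPM). The number of genes with at least 1 CPM stood apart in the DMSO library of mouse 3 (11644).

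The effect of LPS on Gm5150 differed between cells without and with SR9009 in the interaction test (log2 −2.72), a call that was lost without mouse 2, 3 or 4.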

How the results depend on the processing

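Counts of called genes for LPS against DMSO stayed within 1.5 times of 3735 higher and 4115 lower under most settings. Exceptions were total-count scaling (1940 higher and 7522 lower), glmTreat against a log2 of 1 (1446 and 1437) and the lower genes with all 16 libraries in the fit (2741). Upper-quartile scaling gave 35.9% of calls as higher, total-count scaling 20.5%, and TMM 47.6%. Leaving out a mouse gave 3202 to 3555 higher and 3473 to 3955 lower genes, and leaving out a library 3460 to 3777 and 3702 to 4213. With the mouse as a replicate block, 3931 genes were higher and 4418 lower. For the interaction, the block gave 11 higher and 4 lower, and the block with upper-quartile scaling 12 and 3, against 0 and 1 without it. DESeq2 gave 53 and 50, limma-voom 0 and 0, limma on log2(FPKM + 1) 11 and 38, and on log2(FPKM + 0.1) 2 and 8. Leaving out a mouse gave 0 to 5 higher and 0 to 13 lower, and leaving out a library 0 to 17 and 0 to 24, the highest without the SR9009 library of mouse 1. The cause was not tested.

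Of 218 named genes, 174 kept their side of the threshold under all 28 settings, and their direction where called. Sign turns of genes called in neither the main fit nor the alternative were not counted, and the turns named next leave them out. Signs turned with total-count scaling for Atp5pb (−0.019), C1qc (−0.62), Ctsb (−0.51), Lyz1 (−0.63), Slc6a6 (−0.62) and Vim (−0.46), with the replicate block and upper-quartile scaling for C1qc and Lyz1 (both −0.22), with mice 1 and 2 alone for Ccne2 (0.25) and Lyz2 (−0.61), and with mice 3 and 4 alone for Slc6a6 (−0.27). With the replicate block Ccne2 was not called, Apoe, Gpnmb and Psap were called lower and Pf4 higher. Some list counts moved by over 1.5 times when a mouse was left out. Lower calls in the messenger RNA decay list went from 13 to 8 and among Rab GTPases from 7 to 4 without mouse 3. Lower calls among heat shock proteins went from 16 to 9 and 10, and in the Bcl2 and caspase list from 8 to 5 and 5, without mouse 3 or 4. Lower actin genes went from 6 to 3 without mouse 4, and higher kinesins and dyneins from 11 to 7 without mouse 2. With the replicate block the lower poly(ADP-ribose) polymerases went from 3 to 5. The call of Psmg4 was lost without any 1 of the 4 mice, and that of Rpl3 without mouse 2, 3 or 4. Calls were also lost for Selenop without mouse 2 or 3, Eef2 without 2 or 4, Ccne2 without 3 or 4, Timeless without 2 and Gsn without 4. At 15819992 to 24214863 counts per library, genes with few counts in a group have wide ratio intervals.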

Other observations

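Neighbouring genes were compared because some called genes lie side by side. Of 545 pairs of tested protein-coding genes on opposite strands whose starts lie within 1000 bases of each other, both members were called in 192. The 61.7% called over all genes tested is a share of single genes, not of pairs. No expected count of pairs was computed from it, so the 192 is not read as more or fewer than expected. Both were higher in 58, both lower in 88 and the members moved in opposite directions in 46. Across these pairs the log2 fold changes had a Pearson r of 0.413 and a Spearman rho of 0.337. Among 302 pairs of neighbours on the same strand within 1000 bases, 118 had both members called, with 27 both higher, 50 both lower and 41 opposite (Pearson r 0.257, Spearman rho 0.249). These are descriptions across genes, which are not independent replicates, no share for pairs that are not neighbours was computed, and the difference between the arrangements was not tested. Sgsh and Slc26a11, head to head with 20 bases between them, fell together by 4.62 and 5.17 on the log2 scale. The pairs do not overlap as annotated, but the strand setting of the counting is not given in the sources used here. Reads that reach past an annotated start may therefore not have been told apart.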
